A study of Mus musculus with 2 samples.

Results

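Expression of 41 DNA damage response and repair genes was examined in granulocyte-monocyte progenitors (GMP), the marrow precursors of neutrophils and monocytes. The members were a fixed list of genes of homologous recombination, the Fanconi pathway, damage checkpoints, p53 control, end joining and mismatch repair. All 41 were found by gene identifier among the 43346 annotated genes of the deposited tables, and they lie on 15 chromosomes. The series holds 1 group of 2 libraries of total RNA from primary cells of adult male C57BL/6J mice aged 5 to 6 weeks. No genotype, treatment or second condition is given. Starting material per library was 100 ng of RNA, depleted of ribosomal species. The labels call the libraries biological replicates 1 and 2 but tie both to 1 donor record, so an SD here covers the spread of these libraries, part of which may be technical. With 1 group no p-value is given, and the results are levels, contrasts between genes within a library and the spread between the libraries.

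Cells repair double-strand breaks mainly by end joining, which ligates the ends directly, and by homologous recombination, which copies the sister chromatid and is therefore tied to S and G2 phase. The Fanconi pathway unhooks crosslinks between DNA strands at stalled replication forks, and its loss in patients is known for bone marrow failure. Sensor kinases signal damage to checkpoint kinases and to p53, whose level is held low by Mdm2 and Mdm4.

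Replicate 1 held 49473848 and replicate 2 held 44260902 expected counts. A gene with a count of 0 may have had up to 3, and that floor equals 0.0606 CPM (replicate 1) or 0.0678 CPM (replicate 2), where CPM is the count per library total and only counting error is covered. Levels are in TPM, a share of all transcripts that is corrected for transcript length and so allows genes to be compared. Of the TPM of replicate 1, 19.07% lay in nuclear protein-coding genes, and of that of replicate 2, 22.84%. Rescaling TPM over nuclear protein-coding genes would multiply every value by 5.24 in replicate 1 and by 4.38 in replicate 2 (2.39 and 2.13 on the log2 scale), so a deposited TPM tends to be higher in replicate 2. All 10 GMP marker genes fixed for the check were at or above 1 TPM in both libraries, and Mpo, the myeloperoxidase gene, had 2552.33 TPM in replicate 1 against 2287.51 TPM in replicate 2. Of the 5 B cell markers 4 had 0 counts in both libraries, and the list summed to 0 TPM (replicate 1) and 0.02 TPM (replicate 2). Of the 5 T and NK cell markers, Cd3e, Cd3g and Cd8a had 0 counts in both, and the list summed to 0.2 TPM in each. Of 6 erythroid markers only Tfrc, the transferrin receptor gene that dividing cells also use, reached 1 TPM. Of 5 megakaryocyte markers Itga2b alone did, and of 5 markers of stroma and endothelium Pecam1 alone. In bulk RNA, fewer cells of a type and less RNA per cell cannot be told apart.

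Of the 41 members, 40 were at or above 1 TPM in both libraries, which is 97.6% of them, while 40.8% of the 21461 nuclear protein-coding genes met the same rule. The exception was Lig4, the ligase gene of end joining. At or above 10 TPM in both were 7 members, or 17.1%, near the 14.3% of all nuclear protein-coding genes. In replicate 2 alone 14 members (34.1%) reached 10 TPM, against 17% of all nuclear protein-coding genes, and in replicate 1 alone 7 (17.1%) did, against 14.7%, so the nearness to that background did not hold in replicate 2. The 7 in both were Xrcc6, Parp1, Chek1, Mdm4, Msh6, Rad50 and Trp53. The median member stood at 5.22 TPM (replicate 1) and 6.68 TPM (replicate 2). Over all nuclear protein-coding genes the median was 0.17 TPM in replicate 1 against 0.20 TPM in replicate 2. Over the 8764 protein-coding genes at or above 1 TPM in both it was 6.47 TPM (replicate 1) and 7.74 TPM (replicate 2). The members were thus nearly all detected, at levels close to the middle of the expressed genes. On rescaled TPM the median member stood at 27.4 in replicate 1 and 29.2 in replicate 2, and 36 members (87.8%) were at or above 10 in both, against 34.8% of all nuclear protein-coding genes.

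**Figure D1:**
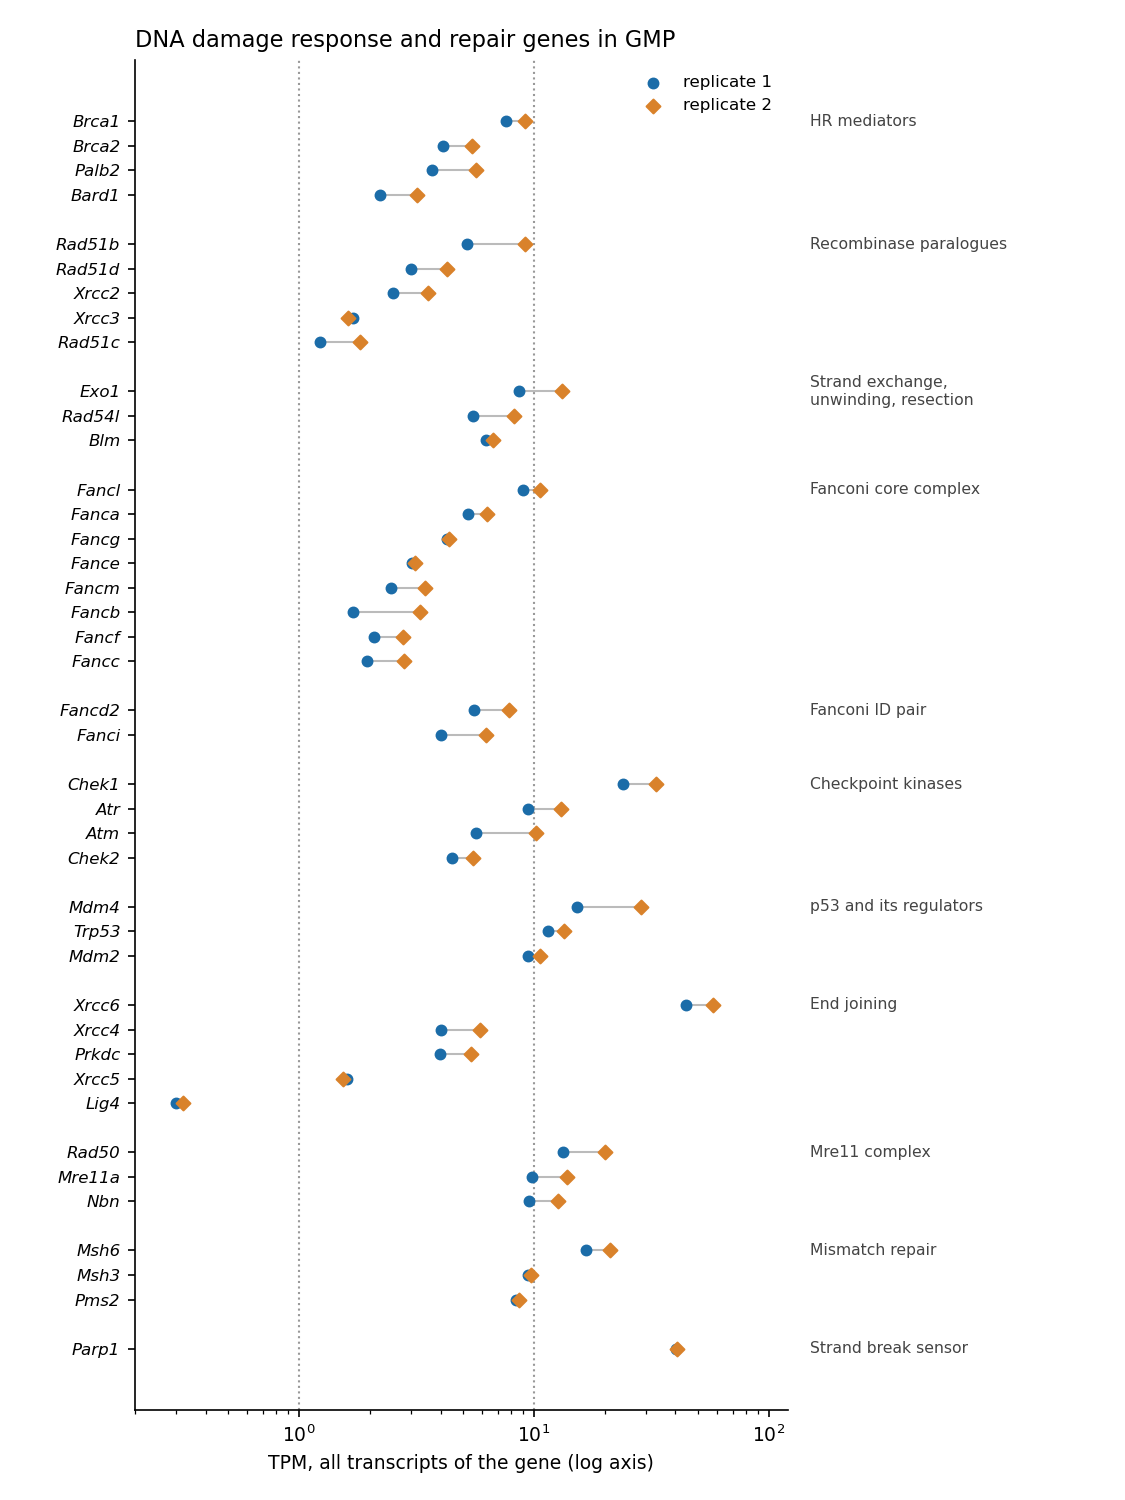
TPM of each of the 41 genes, summed over all transcripts, on a log axis; circles are replicate 1, diamonds are replicate 2, and dotted lines mark 1 and 10 TPM. Genes are grouped by role; Lig4 is the single gene left of 1 TPM, and Xrcc6 and Parp1 stand furthest right.

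Homologous recombination was represented at low to middle levels. Brca1, the tumour suppressor gene whose product promotes resection and recombinase loading, had 7.58 TPM in replicate 1 against 9.19 TPM in replicate 2 (8.39 ± 1.14 TPM, SD, n = 2). Its partner in the ubiquitin ligase, Bard1, had 2.20 TPM in replicate 1 against 3.19 TPM in replicate 2, so that Brca1 was 3.45-fold higher than Bard1 in replicate 1 and 2.88-fold higher in replicate 2. Brca2, which loads the recombinase onto single-stranded DNA, had 4.10 TPM (replicate 1) and 5.47 TPM (replicate 2). Palb2, which links Brca1 to Brca2, had 3.67 TPM (replicate 1) and 5.67 TPM (replicate 2). Brca2 and Palb2 were close and changed order between the libraries, while Brca1 was above and Bard1 below them in both. On expected counts, Brca1 had 6319 in replicate 1 and 6427 in replicate 2, and Brca2 had 6226 in replicate 1 and 6430 in replicate 2. These are nearly equal counts, and the lower TPM of Brca2 goes with its longer mRNA of 10724 nt, against 6572 nt for Brca1.

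The 5 recombinase paralogues, which assist filament formation, had the lowest median of the recombination groups, 2.51 TPM in replicate 1 against 3.53 TPM in replicate 2, with Rad51b apart from the rest. Rad51c had 1.23 TPM in replicate 1 against 1.82 TPM in replicate 2. Xrcc3 had 1.69 TPM (replicate 1) and 1.61 TPM (replicate 2). Xrcc2 had 2.51 and Rad51d 3.0 TPM in replicate 1, and 3.53 and 4.28 TPM in replicate 2. Rad51b had 5.17 TPM (replicate 1) and 9.15 TPM (replicate 2) from only 530 and 660 expected counts. That level rests on 1 transcript of 829 nt, which held 93.7% of the gene's TPM in replicate 1 against 96.8% in replicate 2. Full-length coding transcripts of Rad51b, which means Rad51b-201 alone, summed to 0.33 TPM in replicate 1 against 0.29 TPM in replicate 2. Here a full-length coding transcript is one annotated as protein-coding with complete ends. Its coding sequence reaches at least 90% of the longest such one of its gene. A transcript whose coding sequence in GENCODE M21 exceeds its deposited length was left out. This removed the 829 nt transcript, Rad51b-202, whose coding sequence there is 1050 nt, against 774 nt for Rad51b-201. The low sum for Rad51b therefore does not show that full-length coding RNA was lacking. Downstream of the paralogues, Rad54l, a translocase of strand exchange, had 5.49 TPM (replicate 1) and 8.22 TPM (replicate 2). Blm, the helicase gene of Bloom syndrome, had 6.25 TPM (replicate 1) and 6.68 TPM (replicate 2). Exo1, a nuclease of end resection and mismatch repair, had 8.66 TPM in replicate 1 against 13.15 TPM in replicate 2, although its counts were 4163 in replicate 1 and 3775 in replicate 2. Per library total these counts are 84.1 CPM in replicate 1 and 85.3 CPM in replicate 2, so for Exo1 the TPM of the libraries differed more than their CPM did.

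The Fanconi core complex ubiquitinates the pair Fancd2 and Fanci, which then marks the crosslink for incision. All 8 core complex genes were at or above 1 TPM in both libraries. Fancl, which encodes the catalytic ubiquitin ligase subunit, was the highest, with 8.95 TPM (replicate 1) and 10.60 TPM (replicate 2). Fanca had 5.22 and Fancg 4.28 TPM in replicate 1, and 6.31 and 4.36 TPM in replicate 2. The other 5, Fance, Fancm, Fancb, Fancf and Fancc, lay between 1.69 and 3.02 TPM in replicate 1 and between 2.78 and 3.44 TPM in replicate 2. Their order differed between the libraries, so they are not ranked here. Fancl was 4.28-fold above Fancf, the adaptor subunit gene, in replicate 1 and 3.81-fold above it in replicate 2. Of the substrates, Fancd2 had 5.56 TPM (replicate 1) and 7.82 TPM (replicate 2), and Fanci had 4.00 TPM in replicate 1 against 6.23 TPM in replicate 2. The median of the pair minus the median of the core complex was 0.62 in replicate 1 and 0.87 in replicate 2 on the log2(TPM + 1) scale (0.75 ± 0.18, SD, n = 2). With full-length coding transcripts only it was 0.42 in replicate 1 and 0.58 in replicate 2.

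Among the checkpoint kinases, Chek1, which the replication stress kinase Atr activates, had 23.81 TPM (replicate 1) and 33.09 TPM (replicate 2). Atr itself had 9.40 TPM (replicate 1) and 13.06 TPM (replicate 2). Atm, the kinase that double-strand breaks activate, had 5.68 TPM in replicate 1 against 10.17 TPM in replicate 2. Its effector Chek2 had 4.49 TPM (replicate 1) and 5.49 TPM (replicate 2). In each library Chek1 was highest, Atr next, Atm below it and Chek2 lowest. The mean of Chek1 and Chek2 minus the mean of Atm and Atr was 0.49 in replicate 1 and 0.25 in replicate 2 on log2(TPM + 1). The sign of this contrast turned when only full-length coding transcripts were summed, to -0.81 in replicate 1 and -0.52 in replicate 2. Full-length coding transcripts of Chek1 summed to 1.70 TPM (replicate 1) and 5.07 TPM (replicate 2), which is 7.14% and 15.3% of the gene's TPM. The leading Chek1 transcript in both libraries was one of 310 nt, with 44.2% of the TPM in replicate 1 against 49.2% in replicate 2 from 204 and 188 expected counts. On expected counts, which do not divide by length, Chek1 had 2260 in replicate 1 and 2788 in replicate 2, while Atr had 7906 in replicate 1 and 8281 in replicate 2. The high rank of Chek1 thus rests on short transcripts.

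Trp53, the gene of the p53 transcription factor, had 11.42 TPM in replicate 1 against 13.38 TPM in replicate 2 (12.4 ± 1.39 TPM, SD, n = 2), and its full-length coding transcripts held 96.1% of this in replicate 1 and 98.0% in replicate 2. Mdm2, the ubiquitin ligase gene that is both a regulator and a target of p53, had 9.40 TPM (replicate 1) and 10.65 TPM (replicate 2). Mdm4, its relative that blocks p53 transactivation, had 15.23 TPM (replicate 1) and 28.46 TPM (replicate 2) from nearly equal expected counts of 10078 in replicate 1 and 10280 in replicate 2. Mdm4 was above Mdm2 in both libraries, 1.62-fold in replicate 1 and 2.67-fold in replicate 2. Against Trp53 it was 1.33-fold higher in replicate 1 and 2.13-fold higher in replicate 2. Counted by full-length coding transcripts only, the order of Mdm4 and Trp53 was not the same in the libraries, at 0.816-fold in replicate 1 and 1.14-fold in replicate 2.

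A list of 20 genes known as p53 targets stood lower than the genes that control p53. Of the 20 targets, 10 were at or above 1 TPM in both libraries, while 40.8% of all nuclear protein-coding genes met that rule. The list median was 0.875 TPM in replicate 1 against 1.05 TPM in replicate 2. Over all nuclear protein-coding genes it was 0.17 TPM (replicate 1) and 0.20 TPM (replicate 2). The targets were thus low against Trp53, Mdm2 and Mdm4 but not against protein-coding genes at large. The median of Trp53, Mdm2 and Mdm4 minus that of the targets was 2.74 in replicate 1 and 2.81 in replicate 2 on log2(TPM + 1). The highest targets were Ccng1, which encodes a cyclin G, with 10.57 TPM (replicate 1) and 16.77 TPM (replicate 2), and Gadd45a, a growth arrest gene, with 12.16 TPM (replicate 1) and 11.65 TPM (replicate 2). Ddit4l had 0 counts in both libraries, and Eda2r had 1 count in replicate 1 and 0 in replicate 2. Cdkn1a, the p21 cell-cycle inhibitor gene, was chosen for mention after its values were seen and had 0.64 TPM from 159 counts in replicate 1 and 0.30 TPM from 56 counts in replicate 2. No unstressed or damaged comparison exists here, so these are levels and no measure of p53 activity.

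The end-joining genes spanned the widest range of TPM of any group of members. Xrcc6 encodes Ku70, which with Ku80 of Xrcc5 forms the ring that binds broken ends. Xrcc6 had 44.51 TPM in replicate 1 against 58.06 TPM in replicate 2 (51.3 ± 9.58 TPM, SD, n = 2), the highest of all 41 members. Xrcc5 had 1.60 TPM (replicate 1) and 1.53 TPM (replicate 2). The TPM of the 2 Ku genes thus differed 27.8-fold in replicate 1 and 37.9-fold in replicate 2. The expected counts of Xrcc6, 4317 in replicate 1 and 4555 in replicate 2, stood against 548 in replicate 1 and 401 in replicate 2 for Xrcc5, a ratio of 7.88 in replicate 1 and 11.4 in replicate 2. Full-length coding transcripts gave 9.97 TPM for Xrcc6 in replicate 1 and 15.8 TPM in replicate 2, and ratios to Xrcc5 of 6.23 in replicate 1 and 10.3 in replicate 2. Xrcc6 was above Xrcc5 on each scale, but the size of the gap depended on the noncoding transcripts Xrcc6-205 of 387 nt and Xrcc6-210 of 677 nt and on a coding fragment of 471 nt, Xrcc6-209. Xrcc6-205 held 41.3% of the Xrcc6 TPM in replicate 1 against 30.8% in replicate 2, and Xrcc6-210 held 21.6% in replicate 1 against 8.35% in replicate 2. Xrcc6-209 held 13.1% in replicate 1 and 33.6% in replicate 2. Opposite-strand exons of Desi1 overlap 7.69% of the annotated exon bases of Xrcc6.

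Prkdc, the gene of the kinase that Ku recruits to ends, had 3.96 TPM (replicate 1) and 5.41 TPM (replicate 2). Xrcc4, the scaffold of the ligase, had 4.02 TPM in replicate 1 against 5.88 TPM in replicate 2. Lig4 had 0.30 TPM (replicate 1) and 0.32 TPM (replicate 2), from 166 and 105 expected counts. Prkdc and Xrcc4 were close in both libraries, and Lig4 was the lowest of all 41 members in gene TPM. The mean of the Ku genes minus the mean of Xrcc4 and Lig4 was 2.09 in replicate 1 and 2.02 in replicate 2 on log2(TPM + 1), and 1.06 in replicate 1 and 1.13 in replicate 2 with full-length coding transcripts only. It rests on the high Xrcc6 and the low Lig4, because Xrcc5 was below Xrcc4 in both libraries on either measure. The median of the 5 end-joining genes minus that of the 9 genes of homologous recombination (the mediators and the paralogues) was 0.31 in replicate 1 and 0.28 in replicate 2. With full-length coding transcripts only this contrast was 0.88 in replicate 1 and 0.74 in replicate 2, so its sign held and its size did not. Rad51b enters that measure without Rad51b-202.

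The Mre11 complex tethers and trims broken ends and activates Atm. Of its 3 genes, Mre11a and Nbn stood close together in gene TPM, with Rad50 above them. Rad50, its structural subunit gene, had 13.26 TPM (replicate 1) and 20.07 TPM (replicate 2). Mre11a, the nuclease gene, had 9.81 TPM in replicate 1 against 13.75 TPM in replicate 2. Nbn, the gene of the subunit that binds Atm, had 9.49 TPM (replicate 1) and 12.69 TPM (replicate 2). Rad50 led in both libraries, and Mre11a was slightly above Nbn in both. With full-length coding transcripts only, Mre11a was below Nbn, at 6.40 against 9.49 TPM in replicate 1 and 8.51 against 12.69 TPM in replicate 2. The order of Mre11a and Nbn therefore depended on the measure.

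In mismatch repair, Msh6 and Msh3 encode alternative partners in the recognition dimer, the first for base mismatches and short loops and the second for larger loops. Msh6 had 16.59 TPM (replicate 1) and 21.04 TPM (replicate 2), and Msh3 had 9.46 TPM in replicate 1 against 9.73 TPM in replicate 2. Msh6 minus Msh3 was 0.75 in replicate 1 and 1.04 in replicate 2 on log2(TPM + 1). The single Msh6 transcript is full-length coding, whereas full-length coding transcripts of Msh3 summed to 1.72 TPM (replicate 1) and 3.11 TPM (replicate 2). On that measure the contrast was 2.69 in replicate 1 and 2.42 in replicate 2, again on log2(TPM + 1). As a plain ratio, Msh6 was 9.65-fold above Msh3 in replicate 1 and 6.77-fold in replicate 2 on full-length coding TPM. The ratio of expected counts was 3.82 in replicate 1 and 3.80 in replicate 2. That of gene TPM was 1.75 in replicate 1 and 2.16 in replicate 2. The lead of Msh6 was therefore smallest on the deposited gene TPM. Pms2, a subunit of the endonuclease that acts after recognition, had 8.39 TPM (replicate 1) and 8.61 TPM (replicate 2). Parp1, the strand break sensor that builds poly(ADP-ribose) chains, had 40.14 TPM in replicate 1 against 40.77 TPM in replicate 2, with 18947 expected counts in replicate 1 and 16297 in replicate 2, the most counts of any member. Its full-length coding transcripts gave 35.3 TPM (replicate 1) and 39.8 TPM (replicate 2), which placed Parp1 above every other member on that measure.

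**Figure D2:**
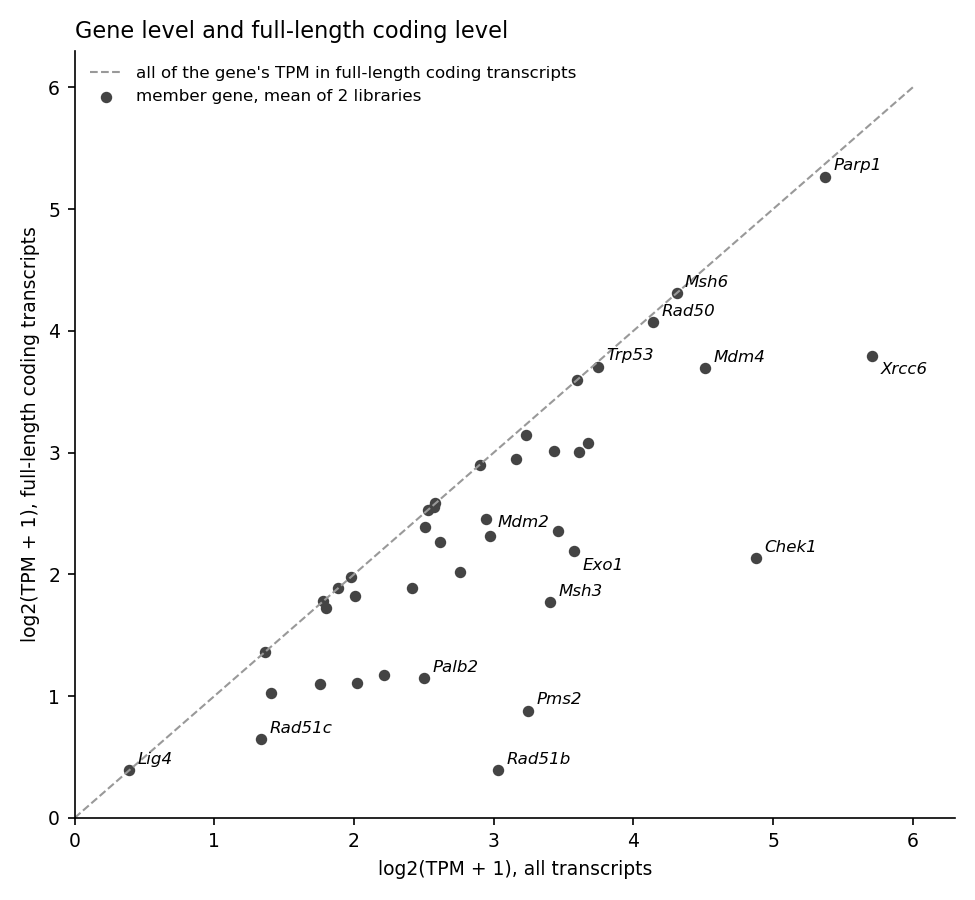
Log2(TPM + 1) of each member, from its mean TPM over the 2 libraries, with all transcripts on the x axis and full-length coding transcripts on the y axis; the dashed line marks equality. Xrcc6, Chek1, Rad51b, Pms2 and Msh3 lie far below the line, and Parp1, Msh6, Rad50 and Trp53 lie on or near it. Rad51b lies there because Rad51b-202 was left out of its full-length coding transcripts.

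Across the members, the distance between gene TPM and full-length coding TPM was wide. Of the 40 members at or above 1 TPM, 12 (30%) had at least 90% of their TPM in full-length coding transcripts in both libraries. The share over expressed protein-coding genes was 46.4%. Among the 12 are the 7 members with only 1 transcript in the files, Brca2, Bard1, Fancf, Fancm, Chek2, Xrcc5 and Msh6. Their share is 100% by construction and is no measurement. The expressed genes also include genes with 1 transcript. Nbn, with 2 transcripts, had all of its TPM in the full-length coding one. Under 50% in both libraries were 8 of the 40, or 20.0%, near the 16.6% of expressed protein-coding genes. Rad51b is among these 8 because Rad51b-202 was left out of its full-length coding transcripts. Counted by full-length coding transcripts, 33 members (80.5%) were at or above 1 TPM in both libraries, against 36.3% of all nuclear protein-coding genes, and 4 (9.76%) were at or above 10 TPM, against 10.3%. The median member then had 2.60 TPM (replicate 1) and 4.88 TPM (replicate 2), and the median of expressed protein-coding genes was 4.36 TPM (replicate 1) and 5.26 TPM (replicate 2). On this measure the median member lay further below the middle of the expressed genes in replicate 1 than in replicate 2.

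**Figure D3:**
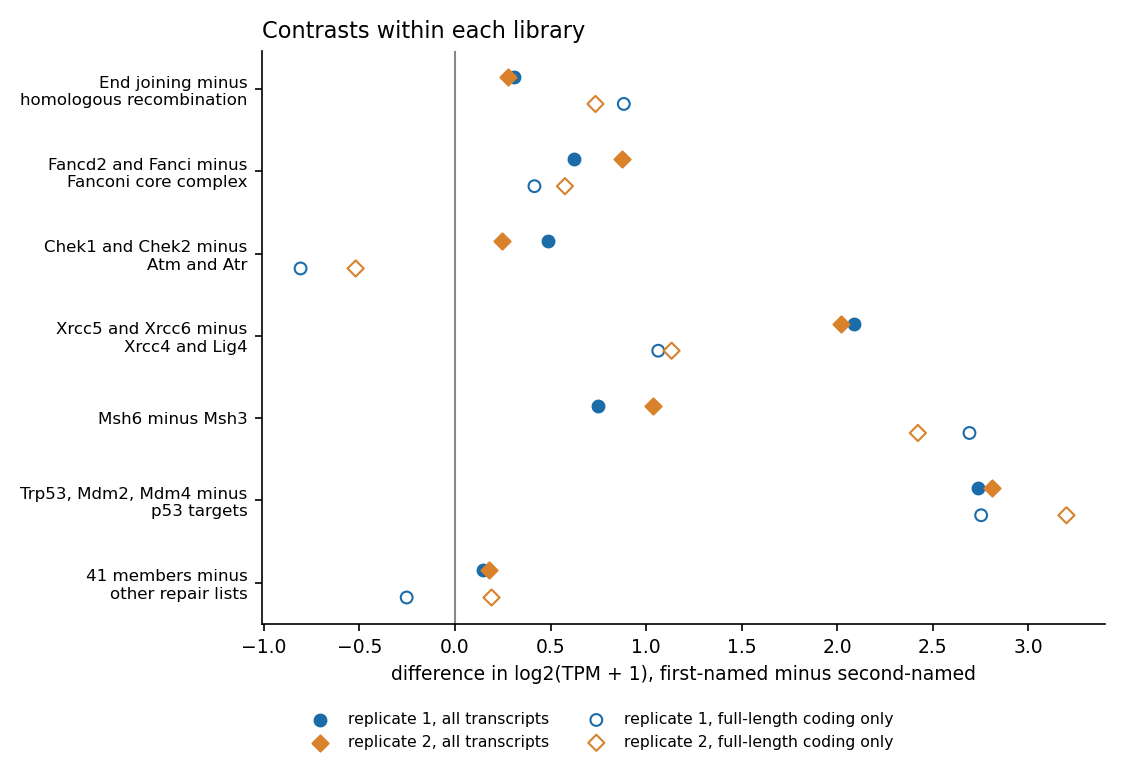
Difference in log2(TPM + 1) between the first-named and the second-named genes, 1 row per contrast; filled symbols use all transcripts and open symbols full-length coding transcripts, with circles for replicate 1 and diamonds for replicate 2. The kinase contrast lies right of 0 with filled symbols, at 0.49 and 0.25, and left of 0 with open ones, at -0.81 and -0.52.

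Other repair and cell-cycle lists give the setting of these levels. The median of the 41 members minus the median of base excision, nucleotide excision and translesion genes was 0.15 in replicate 1 and 0.18 in replicate 2 on log2(TPM + 1), and with full-length coding transcripts -0.25 in replicate 1 and 0.19 in replicate 2, so no order between them held. With list means in place of medians it averaged 0.25 over the libraries. Of 16 base excision repair genes 12 were at or above 1 TPM in both libraries. Apex1, the abasic site endonuclease gene, led with 46.60 TPM in replicate 1 against 57.38 TPM in replicate 2, followed by the thymine glycosylase gene Tdg with 20.08 TPM (replicate 1) and 22.90 TPM (replicate 2). The glycosylase gene Neil2 had 0 counts in both libraries, and Neil1 had 0.17 TPM (replicate 1) and 0.45 TPM (replicate 2). Of 15 nucleotide excision repair genes 14 met the rule, led by Ddb1 with 49.93 TPM in replicate 1 against 58.33 TPM in replicate 2 and Rad23b with 52.76 TPM (replicate 1) and 47.62 TPM (replicate 2). The lowest of that list were Uvssa, with 1.31 TPM (replicate 1) and 1.37 TPM (replicate 2), and Ercc5, with 0.95 TPM in replicate 1 against 1.86 TPM in replicate 2.

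All 8 translesion synthesis genes met the rule of 1 TPM in both libraries. Rad18, which ubiquitinates the sliding clamp, had 12.59 TPM (replicate 1) and 14.01 TPM (replicate 2), and the polymerase gene Rev1 had 8.15 TPM (replicate 1) and 12.30 TPM (replicate 2). The lowest were Polk, with 1.03 TPM in replicate 1 against 1.84 TPM in replicate 2, and Mad2l2, with 1.98 TPM (replicate 1) and 1.02 TPM (replicate 2). All 15 checkpoint adaptor genes met it too, and their median was 6.59 TPM (replicate 1) and 7.83 TPM (replicate 2). Topbp1, the activator of Atr, had 41.12 TPM in replicate 1 against 53.69 TPM in replicate 2, and Rif1, a factor that limits end resection, had 18.53 TPM (replicate 1) and 24.25 TPM (replicate 2). Rad9a, of the sliding clamp that senses damage, had 2.58 TPM (replicate 1) and 3.70 TPM (replicate 2), and the phosphatase gene Cdc25c had 2.84 TPM in replicate 1 against 3.48 TPM in replicate 2. Topbp1 thus stood above Atr, and among the 41 members Xrcc6 alone was higher in mean TPM.

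The proliferation lists stood higher than the repair lists. All 12 S phase genes were at or above 1 TPM in both libraries, with a median of 35.765 TPM (replicate 1) and 40.005 TPM (replicate 2), and so were all 12 mitosis genes, with a median of 20.1 TPM (replicate 1) and 21.3 TPM (replicate 2). The clamp gene Pcna had 124.88 TPM in replicate 1 against 158.08 TPM in replicate 2, and the helicase subunit gene Mcm7 had 114.01 TPM (replicate 1) and 115.27 TPM (replicate 2). The lowest of that list were the origin licensing genes Cdc6, with 8.55 TPM (replicate 1) and 7.13 TPM (replicate 2), and Cdt1, with 7.18 TPM in replicate 1 against 9.09 TPM in replicate 2. Of the mitosis genes, Top2a had 132.53 TPM (replicate 1) and 160.26 TPM (replicate 2) and Cdk1 had 71.49 TPM (replicate 1) and 68.59 TPM (replicate 2). Plk1, with 6.22 TPM in replicate 1 against 8.12 TPM in replicate 2, and Cenpf, with 7.66 TPM (replicate 1) and 9.93 TPM (replicate 2), were the lowest of these.

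Several members changed the transcript that led the gene from one library to the other. Of the 33 members at or above 1 TPM with 2 or more transcripts, 22 (66.7%) had the same leading transcript in both libraries, against 78% of such protein-coding genes. A protein-coding transcript led in both for 23 of them (69.7%), against 83.1%. A transcript with 10% or more of its gene's TPM in one library and under 1% in the other occurred in 13 of the 33 (39.4%), against 34.2%. The first 2 shares were lower for members and the last was higher, and each rests on how reads were divided among transcripts that share most of their bases. For 4 pairs of transcripts, chosen after their values were seen, a stretch that one holds and the other lacks is shown. The transcripts of a pair can differ elsewhere too, as do Mdm4-210 of 7105 nt and Mdm4-214 of 2799 nt. Their levels therefore do not rest on reads over the stretch alone. Each stretch is given in capitals on the strand of its gene from GENCODE M21 transcripts, with neighbouring coding bases of the transcript that holds it in lower case.
Palb2, chr7:122128923-122129016, minus strand: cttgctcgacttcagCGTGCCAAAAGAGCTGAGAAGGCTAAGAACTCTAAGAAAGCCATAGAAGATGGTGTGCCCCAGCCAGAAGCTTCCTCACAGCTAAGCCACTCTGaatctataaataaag
Mdm2, chr10:117695953-117696049, minus strand: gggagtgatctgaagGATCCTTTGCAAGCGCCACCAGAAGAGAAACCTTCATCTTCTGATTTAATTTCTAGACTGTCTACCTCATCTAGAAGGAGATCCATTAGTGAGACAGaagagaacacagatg
Mdm4, chr1:133004654-133004721, minus strand: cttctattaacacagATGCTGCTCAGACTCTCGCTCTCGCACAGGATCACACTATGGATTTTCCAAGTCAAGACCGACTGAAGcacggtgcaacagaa
Pms2, chr5:143911921-143911925, plus strand: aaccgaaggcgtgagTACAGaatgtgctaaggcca
Coordinates are those of the capitals on GRCm38 (mm10). The stretches are 94, 97, 68 and 5 bases long, and none of these lengths is a multiple of 3.

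Over all transcripts that span the Palb2 exon, those lacking it held 63.4% of the TPM in replicate 1 against 16.4% in replicate 2. The decay-annotated transcript without it, Palb2-207, had 833 expected counts in replicate 1 and 181 in replicate 2, while the full-length coding Palb2-203 had 0 in replicate 1 and 838 in replicate 2. The counts of the gene as a whole were 1300 in replicate 1 and 1346 in replicate 2. The total of Palb2 was therefore stable while its transcripts were not, and its full-length coding level was 0 in replicate 1 and 2.43 TPM in replicate 2.

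For the Mdm2 exon, transcripts lacking it held 55.7% of the TPM in replicate 1 against 19.6% in replicate 2. The decay-annotated Mdm2-209 had 1892 expected counts in replicate 1 and 577 in replicate 2, and the coding Mdm2-201 had 1079 in replicate 1 and 1819 in replicate 2. For the Mdm4 exon, whose skipping is known to give a short form of the protein, transcripts lacking it held 15.1% of the TPM in replicate 1 against 17.2% in replicate 2. Of these 4 stretches the Mdm4 exon had the closest shares in the libraries.

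The Pms2 pair differs by 5 bases at the start of 1 exon. The coding Pms2-209 had 0 expected counts in replicate 1 and 990 in replicate 2, and the noncoding Pms2-213, which lacks the 5 bases, had 576 in replicate 1 and 0 in replicate 2. Over all spanning transcripts, those without the 5 bases held 63.2% of the TPM in replicate 1 against 35.0% in replicate 2. In Trp53, transcripts Trp53-201 and Trp53-203 are identical over 1771 bases from the 5′ end and Trp53-201 has 1 further base at the 3′ end. Trp53-201 held 67.2% of the TPM in replicate 1 against 92.8% in replicate 2, and Trp53-203 held 28.9% in replicate 1 and 2.69% in replicate 2. Lig4 swapped entirely, with all 166 counts on Lig4-201 in replicate 1 and all 105 on Lig4-202 in replicate 2. In Rad51c, the decay-annotated Rad51c-204 held 90.2% in replicate 1 and 0 in replicate 2, where the coding Rad51c-202 led with 55.8%. In Xrcc3 it was replicate 2 in which a decay-annotated transcript led, Xrcc3-203 with 52.2%, while Xrcc3-201 held 93.5% in replicate 1. In Rad51d the decay-annotated Rad51d-204 led with 42.6% in replicate 1, and the coding Rad51d-201 with 34.7% in replicate 2. Decay-annotated transcripts led 4 of the 33 members in replicate 1 (12.1%), which were Palb2, Rad51c, Rad51d and Mdm2, and 1 in replicate 2 (3.03%), Xrcc3. Over such protein-coding genes the shares were 3% in replicate 1 and 2.55% in replicate 2.

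**Figure D4:**
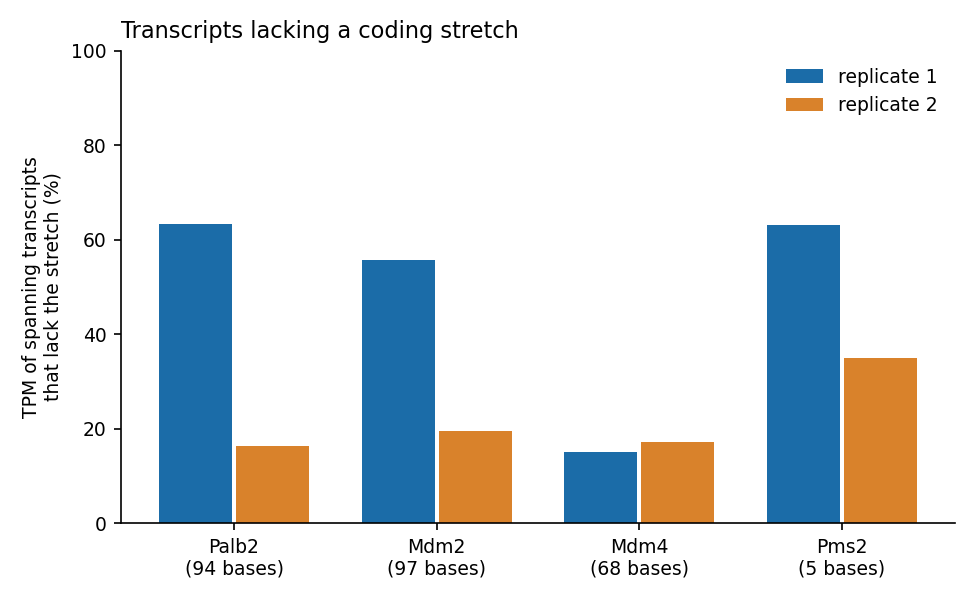
Share of TPM, in percent, held by transcripts that span the stretch but lack it, among all transcripts of the gene that span it; blue bars are replicate 1 and orange bars replicate 2, with the length of the stretch under each gene. Palb2, Mdm2 and Pms2 are higher in replicate 1, and Mdm4 is at 15.1% in replicate 1 and 17.2% in replicate 2.

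The spread of members between the libraries was measured on counts as log2 CPM of replicate 1 minus that of replicate 2. More than 0.5 apart were 6 of 41 members, or 14.6%, against 25.4% of the 12855 genes kept by the filter on low counts. The kept genes include noncoding ones, here and in the shares by depth below. Of the 11143 kept protein-coding genes, 1238 were higher in replicate 1 and 1100 higher in replicate 2 by this margin. Higher in replicate 1 were Fance (0.66), Xrcc3 (0.56) and Lig4 (0.54), and over all kept genes 13.6% were higher there by this margin. Higher in replicate 2 were Fancc (-0.96), Fancb (-0.66) and Rad51c (-0.52), and over all kept genes 11.8% were. Fancc had 462 expected counts in replicate 1 and 830 in replicate 2, Fancb 675 in replicate 1 and 982 in replicate 2, and Fance 508 in replicate 1 and 296 in replicate 2. The 6 were among the 12 members with a mean under 1000 counts (50%), and of all kept genes under that mean 45.3% were apart by this margin. Many of those genes have fewer counts than any member. Of the 3807 kept genes with a mean between 135.5 counts, that of the thinnest member, and 1000, 33.1% were apart by it. Of the 29 members with a mean of 1000 counts or more 0 were, against 7.19% of kept genes at that depth, and their differences lay between -0.42 (Chek1) and 0.17 (Blm). The picture differed on TPM. The log2 ratio of rescaled TPM was more than 0.5 apart for 4 members (9.76%), against 20.6% of kept protein-coding genes, and these were Fancb (-0.64), Mdm4 (-0.64), Atm (-0.56) and Rad51b (-0.55), so that Fancb alone passed on both measures. Atm had 7713 expected counts in replicate 1 and 8955 in replicate 2, and with Mdm4 it is among the deeply counted members.

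The member median of this difference was -0.16, whereas that of all kept genes was 0.00. The difference moved with GC content over the kept protein-coding genes, with medians of -0.16, -0.06, 0.01, 0.11 and 0.17 from the lowest to the highest GC quintile, and the median member had a GC content of 46.2%, against 50.1% over the kept genes, taken from the coding transcript with the longest coding sequence in GENCODE M21. With the GC trend removed the member median was -0.08, and 2 members (4.88%) stayed more than 0.5 apart, Fancc at -1.01 and Lig4 at 0.69, against 19.3% of kept protein-coding genes. Opposite-strand exons of 2010111I01Rik and Gm16133 overlap 18.6% of the exon bases of Fancc, the largest such share among the members, and their part in its difference was not tested. Opposite-strand exons of other genes overlapped 18 of the 41 members in all (43.9%), against 24.3% of nuclear protein-coding genes and 32.2% of those at or above 1 TPM in both libraries. For 6 members (14.6%) the overlap was 10% or more of exon bases, against 9.15% and 11.2% of these, and the labels do not say whether counting used strand.

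**Figure D5:**
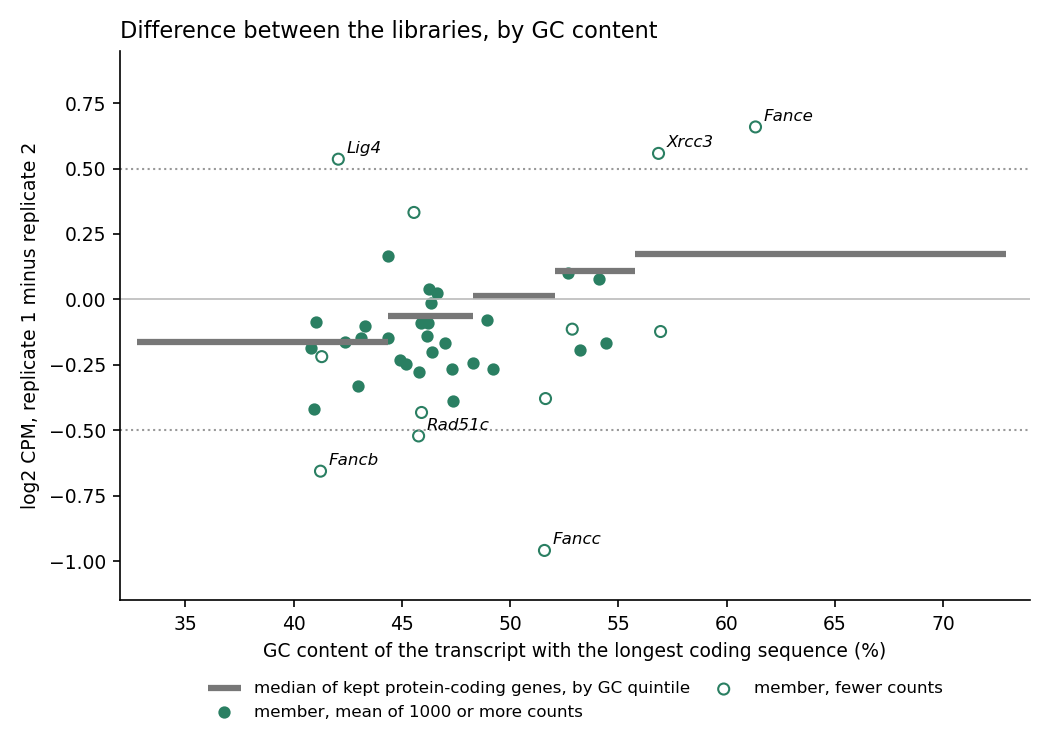
Log2 CPM of replicate 1 minus replicate 2 for each member against GC content of the transcript with its longest coding sequence in GENCODE M21; filled circles have a mean of 1000 or more counts, open circles fewer, grey bars are medians of the kept protein-coding genes by GC quintile, and dotted lines mark 0.5 in each direction. The 6 named members beyond the dotted lines are all open circles, and the grey bars climb from -0.16 to 0.17.

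TPM and counts did not always tell the same story between the libraries. The log2 ratio of rescaled TPM and that of CPM were more than 0.25 apart for 9 of 40 members (22.5%), against 17.4% of expressed protein-coding genes. For Fancc the rescaled TPM ratio was 0.72 above the count ratio, and for Pms2 it was 0.46 above. For Mdm4 it was 0.49 below, with nearly equal counts. Mdm4-210, of 7105 nt, held 58.7% of the TPM in replicate 1 against 35.0% in replicate 2. Fance was 0.45 and Exo1 0.36 below. For 2 of 40 members (5.0%), Xrcc3 and Fancc, the TPM of 1 library lay outside the deposited credibility interval of that gene, against 1.93% of expressed protein-coding genes.

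The start sites of the members were then set against the annotation. A protein-coding gene on the opposite strand, pointing away and starting within 1000 nt, was found for 14 of 41 members (34.1%), against 6.83% of all nuclear protein-coding genes and 12.3% of those at or above 1 TPM in both libraries. The window was chosen with the levels known, and the shares are a description with no test. These members were Brca1, Palb2, Rad51b, Rad51c, Xrcc3, Rad54l, Fancb, Fancd2, Atm, Chek2, Trp53, Prkdc, Lig4 and Pms2. The shortest distance was 21 nt, between Lig4 and Abhd13, and the longest 978 nt, between Rad51b and Zfyve26. Levels within a pair could be close or far apart. Nbr1, the autophagy receptor gene 194 nt from Brca1 on chromosome 11, had 7.59 TPM (replicate 1) and 9.77 TPM (replicate 2), close to Brca1 itself. Abhd13 had 2.90 TPM in replicate 1 against 3.41 TPM in replicate 2, above Lig4 in both. Mcm4, a replicative helicase gene 466 nt from Prkdc on chromosome 16, had 24.04 TPM (replicate 1) and 26.97 TPM (replicate 2), also above its partner. Tex14, 111 nt from Rad51c on chromosome 11, was listed at 0 TPM in both.

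Many genes of S phase and repair are known targets of E2F transcription factors, so promoter windows of 300 bases from RefSeq (GRCm38.p6, 250 before and 50 after the gene start) were searched for an E2F-type motif. The motif was any of TTTCCCGC, TTTGGCGC, TTTGCCGC and TTTCGCGC on either strand. Of the members, 34 had an entry, and Exo1, Fancd2, Nbn, Prkdc, Rad50, Rad51d and Xrcc2 did not. The motif was present for 8 of the 34 (23.5%), against 2.6% of all 27025 gene symbols with an entry and 5.4% of the 7058 symbols at or above 1 TPM in both libraries. The 8 were Bard1, Brca2, Chek2, Fancg, Msh3, Msh6, Rad51c and Xrcc6, and in Msh3 a TTTGGCGC and a TTTCGCGC match on opposite strands overlap. For 3 of these the windows around the motif lie outside every annotated exon, and they are shown with the motif in capitals.
Bard1, chr1:71103158-71103197, minus strand: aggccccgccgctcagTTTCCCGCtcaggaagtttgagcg
Brca2, chr5:150522437-150522476, plus strand: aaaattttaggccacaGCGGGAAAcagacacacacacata
Chek2, chr5:110839815-110839854, plus strand: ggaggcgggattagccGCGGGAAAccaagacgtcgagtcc
The motif starts 209 bases before the RefSeq start of Bard1, 168 before that of Brca2 and 152 before that of Chek2. In Bard1 it reads on the strand of the gene, and in Brca2 and Chek2 on the opposite strand.

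A match of letters is a description, and no binding was measured. Median GC content of the windows was 60.0% for members, 52.7% over all entries and 60.7% for expressed genes, so the members' windows resembled those of expressed genes in this respect. Members with the motif had a median of 4.39 TPM (replicate 1) and 5.48 TPM (replicate 2), and members with an entry but no motif had a median of 5.36 TPM in replicate 1 against 7.45 TPM in replicate 2. At the median, members with the motif were therefore not higher, although Xrcc6, the member of highest gene TPM, holds it. Members without an entry are not covered.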

How the data were processed

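The deposited gene and transcript tables hold expected counts, in which the authors' quantifier split reads shared among features, and TPM scaled over all features of a library. The deposited tables also give posterior mean TPM, bounds of credibility intervals, and each transcript's percent of its gene. Per the deposited metadata the assembly is mm10 and the annotation GENCODE M4. The aligner and the quantifier were not given in the sources used here. Per the labels, the ScriptSeq low-input kit was used, with size ranges of 200 to 712 in replicate 1 and 200 to 1000 in replicate 2, without a unit. Effective lengths imply fragments of 178 nt for replicate 1 and of 214 nt for replicate 2.

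Names, coding sequences and transcript sequences came from GENCODE M21 on the same assembly, by identifier; 42462 of 43346 genes matched, and 2 of the members' 260 transcripts did not. Transcript models can differ between the releases, so a full-length coding transcript also had to be at least as long in the files as its coding sequence. Between the libraries, log2 CPM was compared, using a prior count of 2 and expected counts rounded to whole numbers, with TMM factors of 0.985 and 1.015 and filterByExpr of edgeR 4.0.16 in R 4.3.3. This step was tested on simulated counts, only for recovery of planted ratios at the median. The spread between these libraries and the GC trend are not covered by that test. A lowess curve (span 0.3, statsmodels 0.14.6) gave the GC trend. List contrasts use log2(TPM + 1), which understates differences of low genes. The claspin gene of the adaptor list was matched as Clspn. All 41 members are named, and of each other list the 2 highest and 2 lowest genes, those with 0 counts in both libraries and p53 targets at or above 10 TPM. Members, lists and contrasts were chosen with earlier results of these data known.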

Additional observations from a re-analysis of the deposited data

How the results depend on the processing

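With 2 libraries of 1 group nothing was tested, so settings are compared by value. No paired analysis was possible because there is 1 group. Summing full-length coding transcripts only, an alternative chosen after the data were seen, turned the kinase contrast to -0.66. It brought the contrast of members with the other repair lists to -0.031 on average, with opposite signs in the libraries (-0.25 in replicate 1 and 0.19 in replicate 2), so no order was left. The same setting gave 0.81 for end joining minus homologous recombination, 0.50 for Fancd2 and Fanci minus the core complex, 1.10 for Ku minus Xrcc4 and Lig4, 2.56 for Msh6 minus Msh3, 2.98 for p53 and its regulators minus p53 targets, and 4 members at or above 10 TPM. Rescaled TPM gave 0.35, 2.55, 3.45 and 0.18 for the end joining, Ku, p53 and other-repair contrasts, and 36 members at or above 10 TPM. A pseudocount of 0.1 gave 0.36, 2.69, 3.58 and 0.19 for the same contrasts. Means in place of medians gave 0.52 for the Fanconi, 2.38 for the p53 and 0.25 for the other-repair contrast. Leaving out list genes below 0.1 TPM in both libraries gave 2.03 for the p53 contrast.

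With each library alone, members at or above 10 TPM numbered 7 to 14, the higher count coming without replicate 1, where the end-joining, Fanconi, kinase, Ku, Msh6, p53 and other-repair contrasts kept their signs. Removing the GC trend, also chosen after the data were seen, left 2 members more than 0.5 apart. DESeq2 1.42.0 size factors, a prior count of 0.5 and no filter on low counts each left that number at 6, while the ratio of rescaled TPM gave 4. On that ratio 5 of the 6 members were within the margin, Fancc at -0.24, Fance at 0.20, Xrcc3 at 0.29, Lig4 at 0.10 and Rad51c at -0.27. The floor of 3 counts is well below every member, Lig4 being the thinnest with 166 and 105 counts.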

Other observations

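Annotated pseudogenes and opposite-strand genes of the members were looked up. The pseudogenes Trp53-ps and Mdm4-ps, which carry members' names, had 0 counts in replicate 1, and 0 and 1.01 counts in replicate 2. Opposite-strand exons overlapped 15.95% of the exon bases of Fanci (Polg), 15.4% of Rad54l (Lrrc41), 14.96% of Fancf (Gas2), 13.7% of Fancl (Vrk2) and 10.5% of Fanca (Zfp276). These genes and the neighbours above were chosen for mention after their values were seen.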
